A study of Mus musculus and Homo sapiens with 352 samples.

Results

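The regions described are CTCF-bound sites of the mouse genome listed for both a B cell line and resting and activated B cells. They never appeared as a loop end. They are 18465 of the 35296 CTCF peaks shared by the CH12 and B cell lists, which is 52.3% (51.8 to 52.8, Wilson 95% interval). CH12 is a mouse B cell lymphoma line, and its wild-type list held 39438 CTCF peaks in all. The members were chosen by overlap. A CH12 peak had to share at least 1 base with 1 of 59978 B cell CTCF peaks, and had to share none with any anchor of 2 CTCF ChIA-PET interaction lists. Anchors are the 2 ends of a called interaction, also called a loop here. The remaining 16831 common peaks overlapped an anchor and are called anchor peaks. CTCF occupancy and anchor use are thus the values that selected the members, and the size of the set is a description, not a test.

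CTCF, a protein with zinc fingers that recognises a long DNA motif, bounds chromatin loops together with cohesin. In the loop extrusion model, cohesin reels in chromatin until it meets bound CTCF, most often at motifs that point towards each other. A CTCF site that no loop ends at may still lie inside a loop that other sites delimit. ChIA-PET joins DNA ends held together in an immunoprecipitated complex, so that a sequenced pair reports contact between distant CTCF sites.

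The series holds 352 samples of mouse and human cells in 98 groups, of which mouse B lineage cells are the ones used here. The interaction lists used here came from CTCF ChIA-PET of CH12 cells with the genotype CTCFmZF9to11 and of wild-type CH12 cells. The CH12 peak list came from CTCF ChIP-seq of wild-type CH12 cells. CTCF ChIP-seq of the mutant cells is in the series but was not used, so whether a common peak was bound in them was not examined. By its name, the B cell list holds CTCF peaks of resting and activated B cells. The name gives no tissue, genotype, time or stimulus. In the series, CTCF libraries of activated B cells are labelled wild-type, with differing hours of activation, and some are labelled as HU treated. LPS is among the stimuli named for activated splenic B cell samples of another assay in the series. The mutant list held 11820 loops with 82222 supporting tags, and the wild-type list 11534 loops with 74198 tags. Each genotype had 1 ChIA-PET library and each cell type 1 peak list, so no replicate spread could be had and no difference below was tested. The Wilson 95% intervals cover counting error only and treat regions as independent, which neighbouring regions are not. How many clones the mutant line stands for, and which libraries made up each peak list, is nowhere stated in the labels or headers used.

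Every CH12 peak that met an anchor lay wholly inside it, in 17212 of 17212 overlaps counted over all CH12 peaks. The anchors had a median width of 1064.5 bp, against 581 bp for the CH12 peaks. They reached a median of 180 bp beyond the lower edge and 179 bp beyond the upper edge of the CH12 peaks they held. At 10.1% of the anchors with a CH12 peak, both edges coincided with peak edges. Of 16928 anchors, 15636 held 1 common peak, 583 held 2 or more and 709 held none. There were therefore no anchor peaks that just touched an anchor. The nearest members were 1 bp away, at chr6:35330675-35331482 with a score of 1028 and at chr5:124562080-124562824 with a score of 712 (mm9, positions counted from 1). The least wide anchor peaks were 252 bp at chr13:101364090-101364341 and 263 bp at chrX:138760366-138760628. Only 30 members lay under 100 bp from an anchor, with a median score of 287, and 619 lay under 1 kb, with a median score of 310. By the headers of the interaction lists, loop ends were placed on CTCF peak calls that hold a core motif, and at least 3 tags were required. A member can thus be absent from the anchors for want of a motif or a peak call in that set, or for too few tags, and these cases cannot be told apart in the lists.

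Members were weaker CTCF peaks in CH12 cells. The CH12 score is the authors' own value per peak, with no scale stated, and ran from 90.01 to 3233 over all CH12 peaks. Its median was 272 in members (quartiles 156 and 535) and 801 in anchor peaks (quartiles 427 and 1259). As ranks among all CH12 peaks these medians were the percentiles 38.3 for members and 72.5 for anchor peaks. The score was below the anchor peaks' median in 86.9% of members (86.4 to 87.4), where 50% would mean no shift. The median score was lower in members than in anchor peaks on 20 of 20 chromosomes. The sets overlapped: 2417 members, or 13.1%, scored at or above the median of the anchor peaks.

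The share of common peaks never used as anchors fell steadily with the score. With all CH12 peaks cut into 10 equal classes by score, it was 85.7% in class 1 (84.3 to 87.0), 62.8% in class 5 and 14.1% in class 10 (13.01 to 15.18). Each class had a lower share than the one before it. No class was free of members: class 10, with scores from 1370 up, still held 554. With anchors of loops of 5 or more tags only, the share in class 10 was 31.6%. Peaks outside the B cell list were used even less often, since 3761 of the 4142 CTCF peaks of CH12 cells only (90.8%, 89.9 to 91.6) met no anchor. Such peaks were more frequent in the low classes, as class 1 held 2558 common peaks and class 10 held 3941. Their share was not set against that of common peaks of like score.

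**Figure D1:**
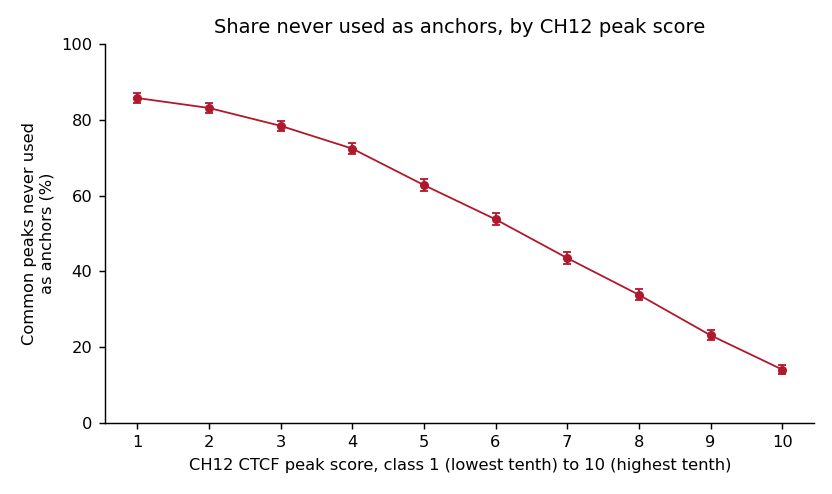
Percent of common CTCF peaks never used as anchors (y axis) against the class of CH12 peak score (x axis, class 1 lowest, class 10 highest); points are shares and bars Wilson 95% intervals. The share falls at each step, to 14.1% in class 10 against 85.7% in class 1.

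Use in 1 list or in both followed the same order, with wild-type scores also for peaks that only the mutant list used. The median score was 272 in members, which neither list used, 649 in the 3186 peaks that only the mutant list used, 592 in the 4247 that only the wild-type list used, and 957 in the 9398 that both used. The graded relation held within the anchor peaks as well. Common peaks with 3 tags, the least that the lists allow, had a median score percentile of 59.0. That of peaks with 10 to 19 tags was 74.2, and that of peaks with 50 tags or more was 88.8. The members, at 38.3, lay below the least supported anchor peaks. Their upper quartile of 59.3 was about the median of the anchor peaks with 3 tags. ChIA-PET itself began with CTCF immunoprecipitation, and the part of CTCF occupancy in the number of tags was not tested.

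**Figure D2:**
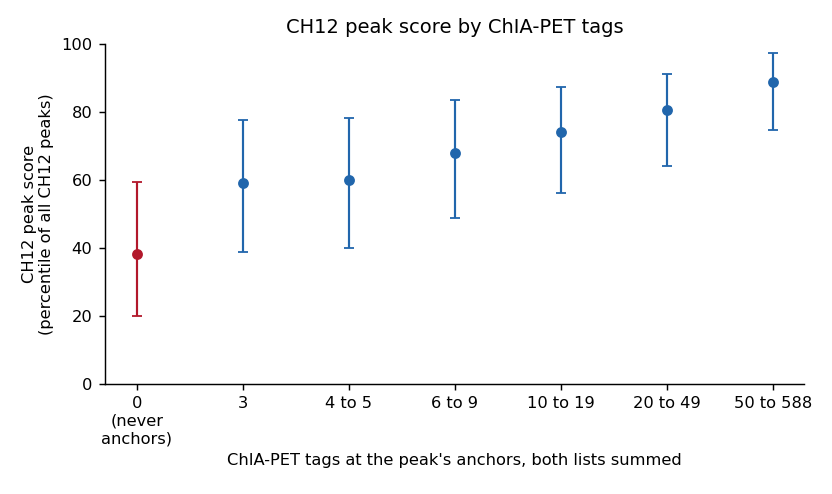
CH12 peak score as a percentile of all CH12 peaks (y axis) against the tags of all interactions at the peak's anchors, mutant and wild-type lists summed (x axis); points are medians and bars run between the quartiles. The members, at 0 tags, have a median of 38.3, below each class of anchor peaks (blue), whose medians run from 59.0 to 88.8.

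The B cell list gave a second reading of strength from other cells. Its fold over background, the authors' ratio for each peak, had a median of 7.05 in members (quartiles 5.15 and 9.05) and 8.23 in anchor peaks (quartiles 6.88 and 9.97). The fold was below the anchor peaks' median in 65.9% of members (65.2 to 66.6), a smaller shift than that of the CH12 score. The score has no stated scale, so these 2 shifts do not compare the cell types. The -log10 q-value of the B cell peak had a median of 57.5 in members (quartiles 27.8 and 91.9). In anchor peaks it was 106 (quartiles 82.0 and 125). By this value the members' upper quartile lay below the anchor peaks' median, which was not so for the fold. B cell peaks over members were 434 bp wide in the median, and those over anchor peaks 646 bp. The distance from the B cell summit to the CH12 peak centre had a median of 22.5 bp in members and 26.5 bp in anchor peaks. Within score classes, 49.9% of members were above the anchor peaks' median. In bp, members thus lay no farther off centre than anchor peaks, but the distance was not scaled to peak width.

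The difference in B cell fold was largest among weak CH12 peaks. In score class 1, members had a median B cell fold of 5.64 and anchor peaks 7.70, and 74.0% of members (72.1 to 75.8) lay below the anchor peaks' median. In class 5 the medians were 7.35 in members and 8.40 in anchor peaks. In class 10 they were 7.83 in members and 8.18 in anchor peaks, with 55.4% of members (51.3 to 59.5) below. Averaged over the score classes with the anchor peaks' weights, 59.2% of members were below. Weak CH12 peaks that were anchors thus had B cell folds near those of strong CH12 peaks, and weak members did not.

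**Figure D3:**
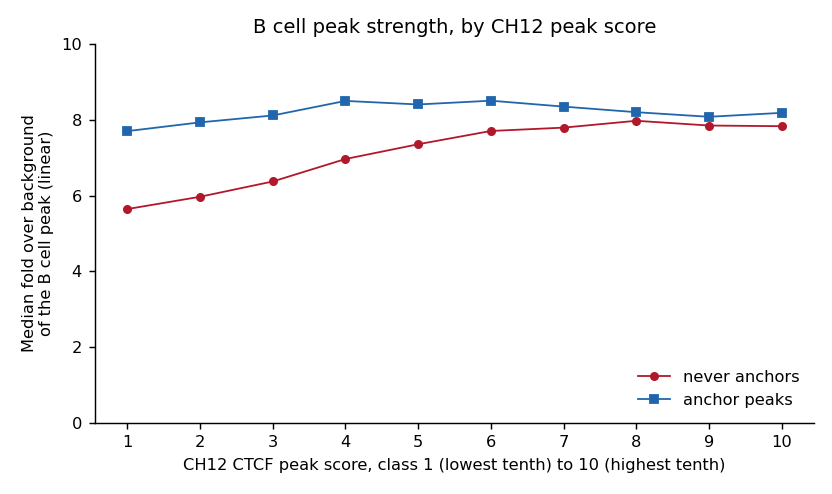
Median fold over background of the overlapping B cell peak (y axis, linear) against the class of CH12 peak score (x axis), for members (red) and anchor peaks (blue); no error bars are drawn. The gap is widest in class 1, with 5.64 in members and 7.70 in anchor peaks, and narrow in class 10, with 7.83 in members and 8.18 in anchor peaks.

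The share never used followed both readings of strength, the CH12 score more closely than the B cell fold. The score and the fold are not on a like scale, and shares by the B cell -log10 q-value were not computed. Where score and fold were both below the common peaks' medians of 465 and 7.70, 81.1% were never anchors (80.3 to 81.8). With a low score and a high fold this share was 62.9% (61.8 to 64.0), with a high score and a low fold 34.9% (33.9 to 36.0), and with both high 28.4% (27.6 to 29.3). By B cell fold alone, the never-used share was 86.0% in the lowest of 10 classes and 44.3% in class 5. From class 6 to class 10 it lay between 42.3% and 43.4%. In the strongest B cell class the median CH12 score was 322 in members and 579 in anchor peaks. The fold was 11.7 or more in that class, while the median member in it scored below the common peaks' median in CH12 cells.

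Members were narrower, in step with their score. The median CH12 peak width was 531 bp in members (quartiles 461 and 629) and 676 bp in anchor peaks (quartiles 583 and 779). The width was below the anchor peaks' median in 82.4% of members (81.8 to 82.9), but in only 54.9% when members were set against anchor peaks of the same score class. In score class 10 the widths were 839.5 bp in members and 837 bp in anchor peaks.

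Members stood somewhat farther from other CTCF peaks. The next common peak was 10.3 kb away in the median member (quartiles 3.61 and 26.1 kb) and 7.29 kb from the median anchor peak (quartiles 2.28 and 18.9 kb). This distance exceeded the anchor peaks' median in 59.1% of members (58.4 to 59.8), and in 54.0% within score classes. Among common peaks with a neighbour under 1 kb away, 39.5% were never anchors (37.9 to 41.1). Among those with none within 100 kb this share was 71.4% (69.0 to 73.6). It rose with distance at each step between. Peaks close together can fall in 1 anchor, so their use is not counted independently.

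Strong and weak peaks differed in how the share moved with spacing. At or above the common peaks' median score it was 24.9% under 1 kb, 30.0% at 5 to 10 kb, 38.1% at 50 to 100 kb and 47.9% at 100 kb and over. Below that score it was 58.7% under 1 kb, 76.6% at 5 to 10 kb, 71.7% at 50 to 100 kb and 80.5% at 100 kb and over. In each spacing class the weaker peaks were never anchors far more often than the stronger ones.

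**Figure D4:**
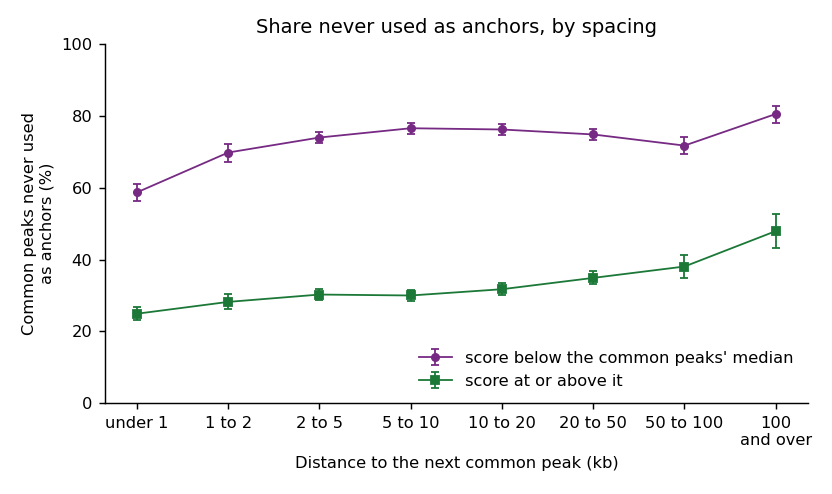
Percent of common peaks never used as anchors (y axis) against the distance to the next common peak in kb (x axis, unequal steps), for scores below the common peaks' median (purple) and at or above it (green); bars are Wilson 95% intervals. Weaker peaks go from 58.7% under 1 kb to 80.5% at 100 kb and over, and stronger peaks from 24.9% to 47.9%.

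Distance to the next anchor, position in loops and neighbours all come from the ChIA-PET lists that also chose the members, so they are given as descriptions. The next anchor was 25.6 kb from the median member (quartiles 8.65 and 71.9 kb) and 16.0 kb from the median anchor peak, its own anchor left out (quartiles 4.94 and 42.2 kb). The distance was above the anchor peaks' median in 61.8% of members (61.1 to 62.5), and in 59.4% within score classes, so this difference, unlike that of width, was little changed among peaks of like score. An anchor peak always has its partner anchor within the lists' limit of 2 Mb, a bound that members lack. No anchor lay within 500 kb of 830 members (4.49%), and the farthest was 6368 kb away. Members in that class had a median score percentile of 30.6, against 42.4 in members between 0.1 and 1 kb from an anchor.

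Never-used peaks were next to each other more often than anchor peaks were next to them. Both neighbouring common peaks were members for 37.1% of members (36.4 to 37.8) and for 21.3% of anchor peaks (20.7 to 21.9). Over the score classes this share stayed between 35.7% and 38.9% for members. For anchor peaks it moved more, between 15.4% in class 2 (12.4 to 18.8) and 23.9% in class 4 (21.3 to 26.7), and was lower than for members in each class. The 583 anchors with 2 or more common peaks make neighbouring peaks anchor peaks together, which by itself lowers the share for anchor peaks. Members between an anchor peak on each side made up 19.4% (18.8 to 20.0). Along the chromosomes the members formed 7605 unbroken runs with a median length of 2 peaks. Single members made 3581 runs, and 170 runs of 10 or more held 12.3% of all members.

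With all loops counted, most members were inside a loop. Some 66.1% (65.4 to 66.8) lay between the inner edges of the anchors of at least 1 loop of either list, against 70.7% of anchor peaks (70.0 to 71.4), whose own loops cannot hold them. With loops of at most 200 kb only, 36.9% of members and 40.4% of anchor peaks were inside one. Members were inside less often on 16 of 20 chromosomes and more often on 4. Mutant loops held 59.0% of members and wild-type loops 50.9%. Loops of both lists held 43.8%, mutant loops alone 15.2% and wild-type loops alone 7.08%, and 33.9% were outside all loops.

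The difference in position was widest among the strongest peaks, without a steady order among the weak ones. In score class 1, 68.8% of members (66.8 to 70.7) and 69.3% of anchor peaks (64.4 to 73.8) were inside a loop. In class 2 the shares were 68.8% of members and 75.6% of anchor peaks, a difference of -6.71 percentage points. In class 5 these shares were 67.5% of members and 68.6% of anchor peaks. In class 10 they were 59.4% of members (55.2 to 63.4) and 71.2% of anchor peaks (69.6 to 72.7), a difference of -11.8 points. From class 5 to class 10 the difference widened at each step. That of class 10 was -11.5 points on autosomes alone, -9.78 with mutant loops alone and -13.2 with wild-type loops alone. The share of anchor peaks moved between 68.6% and 75.6% over the classes, in no steady order.

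**Figure D5:**
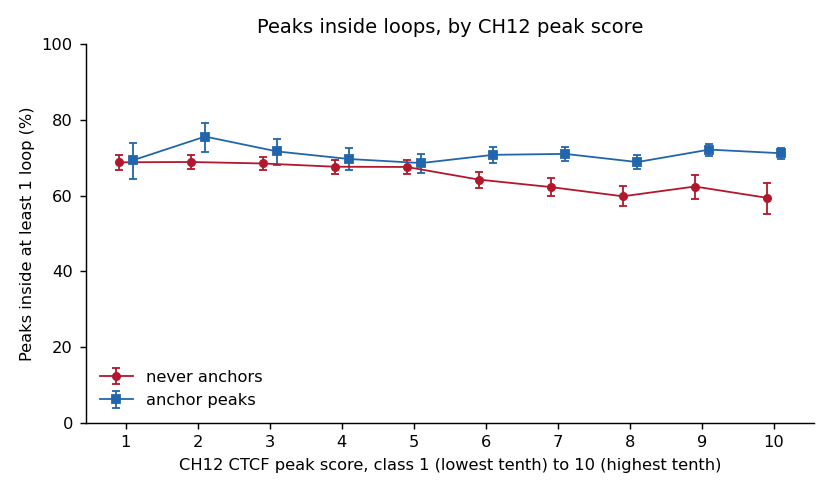
Percent of peaks inside at least 1 loop of either list (y axis) against the class of CH12 peak score (x axis), for members (red) and anchor peaks (blue); bars are Wilson 95% intervals. Members fall to 59.4% in class 10, against 68.8% in class 1, while anchor peaks lie between 68.6% and 75.6%.

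Within their loops, members lay at about the same relative place as anchor peaks, and somewhat less often at the ends. In the shortest mutant loop around a peak, on a scale from 0 at an inner edge to 0.5 midway, the median place was 0.221 for members and 0.219 for anchor peaks. In the shortest wild-type loop it was 0.214 for members and 0.198 for anchor peaks. The 20% of that scale nearest the ends held 25.7% of members and 27.7% of anchor peaks in mutant loops, and 26.3% of members and 31.0% of anchor peaks in wild-type loops. The shortest mutant loop around a member had a median inner span of 197 kb, and that around an anchor peak 194 kb. In the wild-type list these spans were 174 kb around members and 169 kb around anchor peaks.

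More mutant than wild-type loops passed over members. The mean was 1.63 mutant loops and 1.22 wild-type loops per member, and 1.66 mutant loops and 1.22 wild-type loops per anchor peak. More mutant than wild-type loops crossed 35.8% of members, more wild-type than mutant loops 17.0%, and equal numbers, 0 included, 47.1%. For anchor peaks these shares were 38.8%, 17.9% and 43.3%. The surplus of mutant loops was thus as large at anchor peaks. With 1 library per genotype, genotype, library and depth cannot be told apart.

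Members lay in windows with somewhat fewer CTCF peaks. The window of 500 kb on each side of a peak held a median of 27 other CH12 peaks for members (quartiles 16 and 42) and 31 for anchor peaks (quartiles 19 and 45). The number of anchors in it was 12 for members and 15 for anchor peaks, whose own anchor was counted. Fewer CH12 peaks than the anchor peaks' median were seen around 56.2% of members (55.4 to 56.9), and 52.3% within score classes. With 100 kb on each side the medians were 6 for members and 7 for anchor peaks.

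Density went with use in different ways among strong and weak peaks. With 0 to 9 other CH12 peaks in the window, 67.4% of common peaks were never anchors (65.7 to 69.1), and with 60 or more 48.3% (46.5 to 50.1). For peaks at or above the common peaks' median score, these shares were 49.9% at 0 to 9 and 27.7% at 60 or more. For weaker peaks the share was 75.1% at 0 to 9, lowest with 70.0% at 10 to 19 (68.6 to 71.3), and higher at each step from there, up to 77.8% at 60 or more (75.4 to 80.1).

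The X chromosome stood apart. Members were 67.6% of its common peaks (64.0 to 71.0), against 52.0% on autosomes, where the share ran between 47.7% on chromosome 18 and 56.9% on chromosome 5. The X members were inside a loop in 21.6% of cases and were 103 kb from the next anchor in the median. Anchor peaks of the X were inside a loop in 33.8% of cases, against 63.3% to 78.8% over the autosomes, so the low share was not limited to members. Members of the autosomes were inside a loop in 67.2% of cases and 24.98 kb away. X members had a median score percentile of 30.9, against 38.5 for members of the autosomes. The number of X chromosomes in CH12 cells is not stated in the labels, and its part in the X values was not tested.

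A high score did not always go with use. The member listed highest, at chr5:98614011-98614884, had a score of 3222. Its B cell fold of 12.5 was the percentile 95.3 of all B cell peaks. This member lay 12.5 kb from the next anchor inside 1 mutant loop of 3 tags, with 9 other CH12 peaks within 500 kb. Scores piled up at 3100, which 176 common peaks shared, 8 of them members and 168 anchor peaks. With no scale stated, it cannot be told whether 3100 is a cap. The peaks at 3100 may thus be as strong as those listed above it, or stronger. Of the 8 members at 3100, the 5 with the highest B cell folds, from 10.4 to 8.87, were taken. The peak at chr2:164214779-164215942 was 1164 bp wide, 1.47 kb from an anchor and inside 2 mutant loops and 1 wild-type loop. The peak at chr19:23832390-23833811, with a width of 1422 bp, was 101 kb from the next anchor and inside 1 mutant loop of 4 tags. No loop of either list crossed the other 3 of them. The peak at chrX:72918939-72920008 stood 402 kb from the next common peak and 1260 kb from the next anchor. The one at chr7:31758489-31759631 was 16.7 kb from an anchor in a dense window of 57 other CH12 peaks. The one at chr10:86099489-86100449 was 137 kb from an anchor with 26 other CH12 peaks around it. These 6 thus ranged over sparse and dense windows and over positions inside and outside loops.

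For comparison, the 3 anchor peaks with the highest listed scores had B cell folds of 7.36, 10.4 and 6.59. They lay at chr7:25385657-25386586, chr14:67830312-67831115 and chr3:96383831-96384801, with scores of 3233, 3230 and 3228. Their anchors had 138, 59 and 81 tags over both lists. Over score class 10, members had 33 other CH12 peaks and 14 anchors within 500 kb in the median, and anchor peaks 40 and 20, their own anchor counted. Class 10 members lay outside all loops and at least 10 kb from an anchor in 30.9% of cases, against 18.6% of class 10 anchor peaks.

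The members under most loops lay together on chromosome 12. They were the peaks at chr12:88139668-88140279, chr12:88144816-88145393 and chr12:88138992-88139480, each crossed by 9 mutant loops with 97 tags and 20 wild-type loops with 132 tags. Their scores of 1409, 377 and 127 covered much of the scale, and their B cell folds were 8.30, 7.12 and 5.36. They were 2.07, 7.22 and 1.40 kb from the next anchor, so these 3 unused sites lay within 10 kb of an anchor. All 3 share the same loops and are not independent cases.

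The members farthest from any anchor lay together on chromosome 7. The peak at chr7:63547000-63547663 was 6368 kb from the next anchor, that at chr7:63297662-63298277 was 6118 kb away and that at chr7:64793890-64794364 was 6102 kb away. Their scores were 648, 794 and 165, and their B cell folds 7.20, 9.41 and 8.23, so that the first and the second lay between the quartiles of the anchor peaks on both measures. They had 5, 8 and 0 other CH12 peaks within 500 kb.

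The longest runs of members lay on chromosomes 6, 2 and X. A run of 33 common peaks filled chr6:142983800-144963946, another of 33 filled chr2:60281312-64960005, and 31 filled chrX:7692436-12118605. No loop of either list crossed a peak of these 3 runs. This was largely fixed in advance, since no anchor with a common peak can lie inside a run. The runs spanned 1980, 4679 and 4426 kb, while the longest loop listed was 1993 kb. They held 1.67, 0.705 and 0.700 common peaks per 100 kb. Their median scores were 223, 257 and 263, close to that of all members. Their median B cell folds were 7.86, 7.78 and 9.81, above the members' median of 7.05. The run on chromosome 6 held 1 peak of score class 10, with a score of 1398, and the other runs named held none.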

How the data were processed

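The 4 deposited lists used have the build mm9, per the submitters' processing notes. Those notes also name BWA, bedtools 2.25, SAMtools 1.2, Bowtie 1.1.1 and CASAVA 1.8.2, without their roles. For the interaction caller and the pooling of libraries nothing is stated in the labels or headers used. The authors deposited a score per CH12 CTCF peak, with MACS in the peak names and no scale stated. Their deposited B cell list gives, in the narrowPeak layout, a display score (not used here), a ratio (fold over background), a -log10 q-value and a summit offset per peak. The interaction lists hold the count of supporting paired tags per loop, which the authors placed on CTCF peaks that hold a core motif and kept from 3 tags up and to a length of 2 Mb, per the file headers.

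Overlap meant 1 base or more. Where several B cell peaks overlapped a CH12 peak, the one with the highest fold gave its values. Distances run from edge to edge, and windows from centre to centre. Score classes are 10 equal classes of all CH12 peaks, and same-class shares are weighted by the anchor peaks' numbers. Intervals are Wilson 95% intervals. Python 3.11.15, numpy 2.4.6, pandas and matplotlib were used, and the interval functions were tested on simulated data. With 1 library per genotype nothing was tested. The total tags of each list count called loops only and do not give the depth of the ChIA-PET libraries. Depth of the ChIP-seq lists is unknown, since they hold no counts.

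Regions named in the text were the 6 members with the highest score, the 3 under most loops, the 3 farthest from an anchor, the 3 longest runs, the 3 anchor peaks with the highest score and the peaks nearest to the rule's limit. Ties at the score of 3100 were broken by B cell fold, a choice made after the values were seen. Sequence, motif orientation and gene context were planned but not run, because no mm9 genome or annotation was used here. The members and the lists were chosen with earlier results of these data known. Alternatives covered tag support, anchor width, list, overlap, score and chromosome.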

Additional observations from a re-analysis of the deposited data

How the results depend on the processing

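Of 42 alternatives, 31 planned and 11 added after seeing the data, 16 moved a value by less than its counting interval and 26 by more. None was counted as turning a direction round, but a plain share has no direction to turn, and some crossed 50%. The share of members inside a loop fell below 50% with loops of 5 or more tags and with loops of at most 200 kb. The share never used did so with anchors widened by 5 kb and among CH12 peaks from the median score upwards. The share never used as anchors was 69.0% with loops of 5 or more tags, 50.6% and 43.9% with anchors widened by 1 and 5 kb, 61.3% for the wild-type list alone, 64.3% for the mutant list alone and 33.5% for CH12 peaks from the median score upwards. In score class 10 it was 31.6% with loops of 5 or more tags and 11.2% with anchors widened by 5 kb. The share of members below the anchor peaks' median score was 85.3% with loops of 5 or more tags, 86.4% with anchors widened by 1 kb and 65.9% by B cell fold. Within score classes the shares beyond the anchor peaks' median were 54.9% for width, 54.0% for the next common peak, 59.4% for the next anchor and 52.3% for CH12 peak density, and 62.8% of members were inside a loop. Width gave 81.0% with loops of 5 or more tags, and the next common peak 62.8% with anchors widened by 1 kb. Density gave 53.0% in windows of 200 kb and 55.1% on autosomes. The share of members inside a loop was 44.6% with loops of 5 or more tags (anchor peaks 47.2%), 36.9% with loops of at most 200 kb (40.4%), 50.9% with wild-type loops (53.4%) and 59.0% with mutant loops (63.2%). In score class 1, members below the anchor peaks' B cell fold were 76.0% with loops of 5 or more tags and 69.6% with anchors widened by 1 kb. No paired analysis was possible because each genotype had 1 ChIA-PET library and each cell type 1 peak list. Absence from lists that require 3 tags does not show that a site forms no loop.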
